A study of Mus musculus with 6 samples.

Results

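The cells described here are 1493 testis cell barcodes with many protamine UMIs and few UMIs of Tnp2, the gene of transition protein 2. A barcode belonged to them if it held at least 2000 unique molecular identifiers (UMIs, each standing for 1 captured mRNA molecule), if at least 10% of these came from Prm1, Prm2, Tnp1 and Tnp2 together, and if its ratio of (Tnp2 UMIs + 1) to (Prm2 UMIs + 1) lay below the pooled median. Of 48939 barcodes in 6 libraries, 38235 held at least 2000 UMIs, 2986 of these were protamine-rich, and 1493 fell below the median ratio. The other 1493 protamine-rich barcodes are called high-Tnp2 spermatids, and the members low-Tnp2 spermatids. Because these 4 genes chose the cells, their values are given as a description, and no test result of any single one is given.

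The libraries were made from dissociated whole testes of 8-week-old C57BL/6 wildtype male mice (C57BL/6N in the study's methods) kept for 2 weeks on food with much fat (high-fat diet, HFD) or with little (low-fat diet, LFD), with 3 mice and 3 libraries labelled for each diet. The study asked whether such a short diet changes developing germ cells. The file names carry the opposite diet for every library. Groups follow the sample titles, and each difference between the diets changes sign if the file names are right. The labels name version 2 of the library kit, whereas the study's methods name a later one. Libraries held 5753 to 11095 barcodes and 39196921 to 95845514 UMIs. The replicate 1 libraries of both diets held 1137 of the 1493 members (76.2%), and HFD replicate 2 held 26. Between 12 and 28 barcode sequences were shared by each pair of libraries, and 0 members were.

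Condensing spermatids replace the histones of their DNA with transition proteins and then with protamines, small arginine-rich proteins that pack the sperm nucleus. Their transcription stops as the chromatin closes, so proteins needed later, such as those of the tail and the sheath of mitochondria, are made from mRNAs stored beforehand. Tssk6 encodes a testis kinase, Gapdhs the sperm form of a glycolytic enzyme, Akap4 and Odf1 proteins of the tail, and Car2 carbonic anhydrase 2.

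The markers of late spermatids were present in nearly every member. High-Tnp2 spermatids held the markers outside the rule nearly as often, from 96.45% of barcodes for Odf1 to 99.9% for Gapdhs. Car2 was detected in 99.1% of low-Tnp2 barcodes, at 1405 CPM (counts per 1000000 UMIs) over the pooled cells, against 67.0 CPM in the 35249 other barcodes of at least 2000 UMIs and 94.3 CPM in 231 barcodes selected on macrophage genes, a cell type that should lack it. Gapdhs stood at 5700 CPM in members, 560.2 CPM in the other barcodes and 564.4 CPM in the macrophage-gated ones. Tssk6 stood at 2915, 211 and 262 CPM in the same order. Akap4 was at 1948, 239 and 211 CPM, and Odf1 at 787, 231 and 363 CPM. The macrophage-gated cells, with a median of 3470 UMIs, held a Tssk6 UMI in 60.2% of barcodes, so a single UMI of such a gene is not evidence of expression, and levels are used below. The median depth was 8289 UMIs in the members.

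The 4 genes of the rule lie at 2 places in the genome. Prm1 (ENSMUSG00000022501, chr16:10796326-10805839), Prm2 (ENSMUSG00000038015, chr16:10791380-10796134), Prm3 and Tnp2 (ENSMUSG00000043050, chr16:10787936-10788660) are neighbours on the minus strand of chromosome 16 (GRCm38), with 191 bases between the annotated ends of Prm2 and Prm1 and 1844 between Tnp2 and Prm3. Tnp1 (ENSMUSG00000026182, chr1:73015074-73015909, minus strand) lies apart. The 250 bases before their start sites are shown, since the cells were chosen on these genes. They were taken from RefSeq (GRCm38.p6, minus strand) at chr16:10796824-10797073, chr16:10792106-10792355, chr16:10788656-10788905 and chr1:73015900-73016149. The stretches of Prm1 and Prm2 lie inside the gene spans given above, which are from GENCODE and reach further upstream. Capitals mark TGANGTCA, a form of the cyclic AMP response element TGACGTCA with any letter in place of the C before GTCA, and TATANA, a form of the TATA box, on either strand.
Prm1: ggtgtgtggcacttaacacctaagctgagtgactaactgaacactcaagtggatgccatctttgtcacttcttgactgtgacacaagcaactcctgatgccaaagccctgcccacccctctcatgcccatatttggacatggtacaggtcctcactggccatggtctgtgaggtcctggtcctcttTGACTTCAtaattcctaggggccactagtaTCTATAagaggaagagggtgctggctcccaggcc
Prm2: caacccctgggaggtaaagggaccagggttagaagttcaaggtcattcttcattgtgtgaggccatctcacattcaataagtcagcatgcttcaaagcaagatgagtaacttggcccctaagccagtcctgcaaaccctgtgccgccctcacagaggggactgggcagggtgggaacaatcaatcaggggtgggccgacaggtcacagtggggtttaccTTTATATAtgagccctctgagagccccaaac
Tnp2: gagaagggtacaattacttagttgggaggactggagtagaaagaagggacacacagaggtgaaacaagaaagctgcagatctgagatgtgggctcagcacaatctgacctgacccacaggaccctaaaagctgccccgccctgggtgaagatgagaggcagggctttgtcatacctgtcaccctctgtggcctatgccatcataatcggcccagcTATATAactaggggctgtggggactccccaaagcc
Tnp1: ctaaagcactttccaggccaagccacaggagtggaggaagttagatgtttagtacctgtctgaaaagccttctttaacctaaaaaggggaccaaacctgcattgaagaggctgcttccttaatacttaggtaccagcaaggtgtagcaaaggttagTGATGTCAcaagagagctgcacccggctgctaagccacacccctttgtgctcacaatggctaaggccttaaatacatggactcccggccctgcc
TGANGTCA was found from position -64 of Prm1, on the other strand, and from position -94 of Tnp1, with -1 as the base before the start. TATANA was found from position -34 of Prm1 (other strand), -29 of Prm2 and -35 of Tnp2. Of 27025 genes with a listed window, 7.59% held TGANGTCA and 23.4% held TATANA in these 250 bases. A match describes letters and not a bound factor.

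The ratio of Tnp2 to Prm2 UMIs had 2 peaks. Members had a median ratio of 0.0362 and high-Tnp2 spermatids of 1.01, and 224 barcodes lay between ratios of 0.05 and 0.25. The median of the pooled set, 0.800, lay on the lower flank of the upper peak and not in the gap. Just inside the bound, the last member had 697 Tnp2 and 872 Prm2 UMIs (ratio 0.7995). Just outside it, the nearest barcode had 43 and 54 UMIs (ratio 0.800). The lowest share of the 4 genes inside was 10.01% of UMIs and the highest outside 9.99%, and the depths next to the minimum were 2005 and 1989 UMIs.

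**Figure D1:**
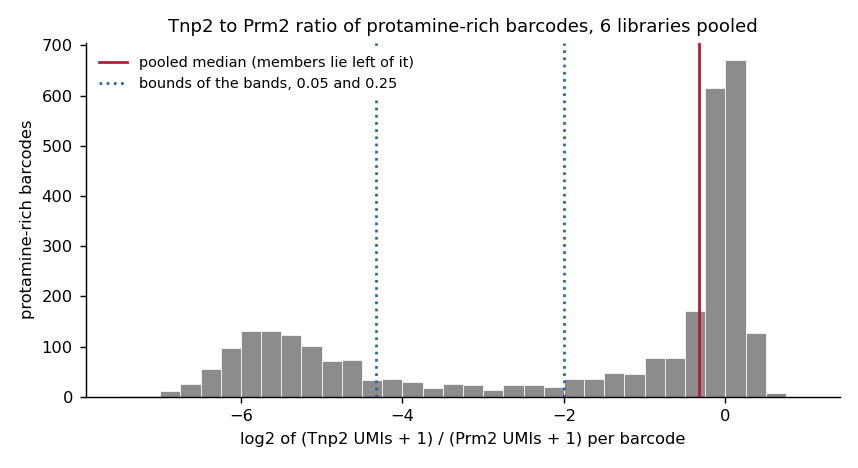
Histogram of log2 of (Tnp2 UMIs + 1) to (Prm2 UMIs + 1) over the 2986 protamine-rich barcodes of the 6 libraries, with the number of barcodes on the y axis. The solid line is the pooled median, with the 1493 members to its left, and the dotted lines at ratios of 0.05 and 0.25 divide the members into 3 bands, the lowest of which lies around the left peak.

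Members were therefore also described in 3 bands of the ratio, with bounds chosen after the ratios were seen. The band under 0.05 held 849 members (56.9%), the band from 0.05 to 0.25 held 224 (15.0%), and the band from 0.25 to the median held 420 (28.1%). The last of these bands lies next to the upper peak, so the label of late cells rests mainly on the other 2. The 4 genes of the rule had different levels along the bands. The bands sort barcodes by Tnp2 against Prm2 within a gate on all 4 genes. The fall of Tnp2 and the level Prm2 therefore follow in part from the rule, and no order of loss is read from them. Tnp1 had a median of 638 UMIs per barcode in high-Tnp2 spermatids and 448, 31 and 10 in the bands in falling order of the ratio. Tnp2 had 982, 516, 102.5 and 19 UMIs in the same order. Prm1, by contrast, still had 1615 and 1096.5 UMIs in the upper bands, against 1376 in high-Tnp2 spermatids, and 87 in the lowest. Prm2 stayed at 980, 1111.5, 1106 and 962 UMIs per barcode.

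**Figure D2:**
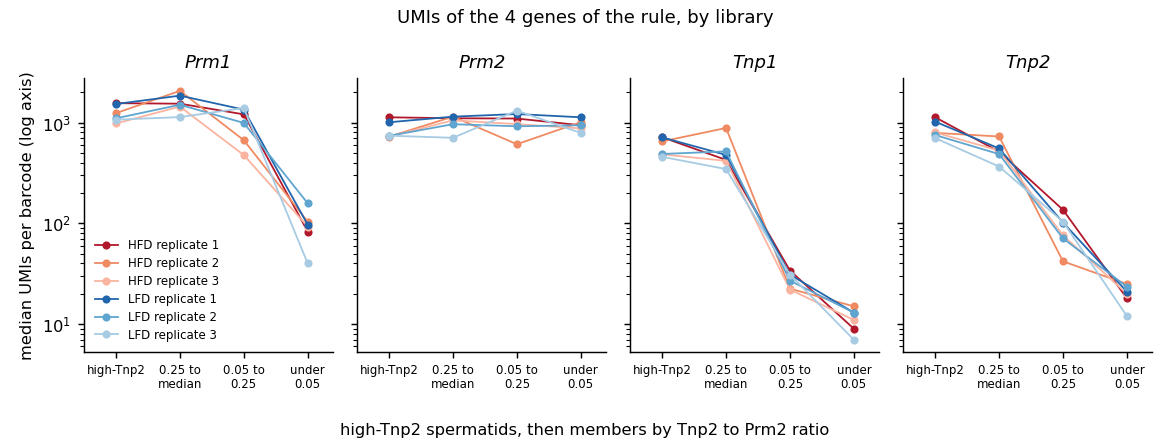
Median UMIs per barcode (log axis) of Prm1, Prm2, Tnp1 and Tnp2 in each of the 6 libraries (1 line each), for high-Tnp2 spermatids and the 3 bands of members. Tnp2 is lower in every library from the band of 0.25 to the median on, and Tnp1 from the band of 0.05 to 0.25 on. Prm1 is low in the lowest band, and Prm2 stays between 612 and 1319 UMIs in every library.

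UMIs of these genes were also found in barcodes of cells that should lack them, such as the macrophage-gated ones. Whether free RNA or doublets gave these UMIs was not tested. As a share of all UMIs, Tnp2 in the lowest band was at 2676 CPM, between 1958 and 2757 CPM in single libraries, against 3173 CPM in the macrophage-gated barcodes and 2873 CPM in the other barcodes of at least 2000 UMIs, which include other germ cells. Per barcode, the lowest band had a median of 19 Tnp2 UMIs and the macrophage-gated barcodes 11, so the order depends on the scale. The share of Tnp1 was 1401 CPM in the lowest band and 2623 CPM in the macrophage-gated barcodes, with medians of 10 and 9 UMIs. Prm1, at 23572 CPM, was above the 7316 CPM of the macrophage-gated barcodes, and Prm2 was at 131530 CPM against 6297 CPM. Over all members, Prm2 ranged from 81005 to 104843 CPM (median 94651) across libraries and from 41525 to 51723 CPM (median 46689) in high-Tnp2 spermatids.

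Low-Tnp2 spermatids held fewer UMIs. Their median per library ranged from 6686 to 11237.5 UMIs per barcode, against 13863.5 to 19502 in high-Tnp2 spermatids, and the ranges did not overlap. Less RNA per cell and poorer capture cannot be told apart here. With every barcode thinned to 2000 UMIs, members held between 728 and 801 genes in the 6 libraries and high-Tnp2 spermatids between 881.5 and 986.5. The mean difference was -174 genes ± 29.7 (SD over 6 libraries), with fewer genes in the members of 6 of 6 libraries (exact sign-flip permutation test, two-sided, p = 0.03125, the smallest these 6 pairs can give, and 0.0625 adjusted over 2 such tests). Barcodes were not screened by a doublet caller.

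Outside the 4 genes of the rule, the mRNA make-up of low-Tnp2 spermatids was compared with that of high-Tnp2 spermatids of the same library. Here rose and fell refer to the share among the other mRNAs, with the 4 genes removed and the sums scaled by edgeR's TMM factors. They do not refer to molecules per cell. The CPM are of the UMIs left and without these factors, so a small rise can go with an equal or lower CPM. The cells were divided by Tnp2 and Prm2, so a call says that a gene's share went with that ratio from library to library. Of 9612 genes tested, 3191 rose (33.2%) and 3222 fell (33.5%) at an adjusted p under 0.05 (edgeR's quasi-likelihood test with the library as a block), with a median log2 change of 0.07. Scaling by library size alone lowered this median to -0.13 and gave 2212 rises and 3725 falls, and leaving out both replicate 1 libraries gave 1713 and 2143. Without the filter on low counts there were 2048 rises and 4577 falls.

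The comparison was uneven in size. Among genes of at least 50 CPM that moved in 1 direction in 6 of 6 libraries, the largest rise was a log2 change of 1.72 and the largest fall was -3.37. In UMIs per barcode the contrast was of another kind. Of the 9612 genes, 6528 had fewer UMIs per member barcode in 6 of 6 libraries and 80 had more. The genes that rose most in share had more UMIs per barcode in members than in high-Tnp2 spermatids when libraries were pooled, as the values below show, while those that fell most had few left.

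The 10 genes that rose most were Bri3bp, Tbc1d20, Apoe, Coil, Limk2, Gm12462, Spem1, Spem2, Clpb and Aldoa. Bri3bp (chr5:125441568-125460370, plus strand), which encodes a membrane protein that binds BRI3, ranged from 225 to 319 CPM (median 269) in low-Tnp2 spermatids and from 87.7 to 98.8 CPM (median 96.5) in high-Tnp2 spermatids (log2 change of 1.72 ± 0.11 (SE), adjusted p = 2.49e-13). Tbc1d20 (chr2:152293828-152313996), a GTPase-activating protein for Rab GTPases, ranged from 709.9 to 1033 CPM (median 887) and from 273 to 371 CPM (median 344), in the same order (log2 change of 1.60 ± 0.11 (SE), adjusted p = 4.77e-13). Every library of members lay above every library of high-Tnp2 spermatids for both genes. Clpb, a mitochondrial disaggregase, ranged from 1362 to 2014 CPM (median 1725) and from 577 to 779.7 CPM (median 676) (log2 change of 1.53 ± 0.11 (SE), adjusted p = 7.33e-13). Its mean UMIs per barcode were 15.0 against 11.7. Apoe, the lipoprotein component, rose by a log2 of 1.59 ± 0.12, at a mean of 252 CPM in members, 18.7 CPM in the other barcodes and 1367 CPM in macrophage-gated ones, where it is a known product. Coil, Limk2 and Gm12462 rose by 1.58 ± 0.13, 1.57 ± 0.13 and 1.55 ± 0.14. Gm12462 is annotated as antisense, and the strand setting of the counting is not given in the sources used here, so its reads may belong to an overlapping gene.

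Spem1 and Spem2 are adjacent genes on chromosome 11 (GRCm38, minus strand, chr11:69820876-69822180 and chr11:69816566-69818465) with 2410 bases between them. Spem1 is needed for the removal of spermatid cytoplasm and the shape of the sperm head. Spem1 ranged from 1110 to 1526 CPM (median 1415) in members and from 446 to 602 CPM (median 542) in high-Tnp2 spermatids (log2 change of 1.55 ± 0.10 (SE), adjusted p = 2.57e-13). Spem2 ranged from 690.1 to 1068 CPM (median 883) and from 295 to 392 CPM (median 350.4) (log2 change of 1.54 ± 0.11 (SE), adjusted p = 1.14e-12). The libraries of the 2 groups did not overlap for either gene. Spem1 had 10.0, 12.4, 12.3 and 12.8 mean UMIs per barcode from high-Tnp2 spermatids to the lowest band of members, and Spem2 had 6.37, 6.63, 7.08 and 9.31. The bases before both starts (chr11:69822166-69822415 and chr11:69818464-69818713, GRCm38.p6) are shown because the genes moved together. They held neither TGANGTCA nor TATANA.
Spem1: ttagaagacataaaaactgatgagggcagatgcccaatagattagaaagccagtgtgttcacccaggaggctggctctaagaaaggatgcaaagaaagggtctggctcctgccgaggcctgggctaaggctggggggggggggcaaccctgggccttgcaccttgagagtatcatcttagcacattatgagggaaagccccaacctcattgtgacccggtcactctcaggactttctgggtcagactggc
Spem2: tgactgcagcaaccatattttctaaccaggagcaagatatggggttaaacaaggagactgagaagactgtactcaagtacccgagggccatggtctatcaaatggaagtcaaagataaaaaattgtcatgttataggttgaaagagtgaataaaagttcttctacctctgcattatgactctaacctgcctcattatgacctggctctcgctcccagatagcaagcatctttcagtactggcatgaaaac

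The 10 genes that fell most were Ccdc185, Cntn1, Cdyl, Cypt1, Hemgn, Prss52, Cst13, Fam71b, 4930500M09Rik and Ifngr2. Cdyl (chr13:35659833-35874063, plus strand), a chromodomain protein tied to histone acetylation in spermatids, ranged from 19.6 to 123 CPM (median 42.5) in members and from 594 to 748 CPM (median 719) in high-Tnp2 spermatids (log2 change of -3.30 ± 0.19 (SE), adjusted p = 2.23e-14). Its mean UMIs per barcode were 12.4, 2.22, 0.357 and 0.180 from high-Tnp2 spermatids to the lowest band. Cypt1 (chrX:16522869-16523689), a basic protein of spermatids from a gene family with similar copies, ranged from 45.1 to 272 CPM (median 93.3) and from 1209 to 1495 CPM (median 1331) (log2 change of -3.27 ± 0.19 (SE), adjusted p = 2.45e-14). Hemgn (chr4:46393989-46413506), a nuclear protein, ranged from 10.9 to 100.1 CPM (median 23.5) and from 366 to 665 CPM (median 484) (log2 change of -3.25 ± 0.24 (SE), adjusted p = 2.44e-12). For these 3 genes the highest library of members stayed below the lowest of high-Tnp2 spermatids. The log2 change was -3.18 ± 0.16 for the serine protease gene Prss52, -3.13 ± 0.17 for the cystatin gene Cst13, -3.12 ± 0.17 for Fam71b and -3.37 ± 0.20 for Ccdc185. 4930500M09Rik, annotated as antisense, had 0.0378 UMIs per member barcode against 1.03.

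**Figure D3:**
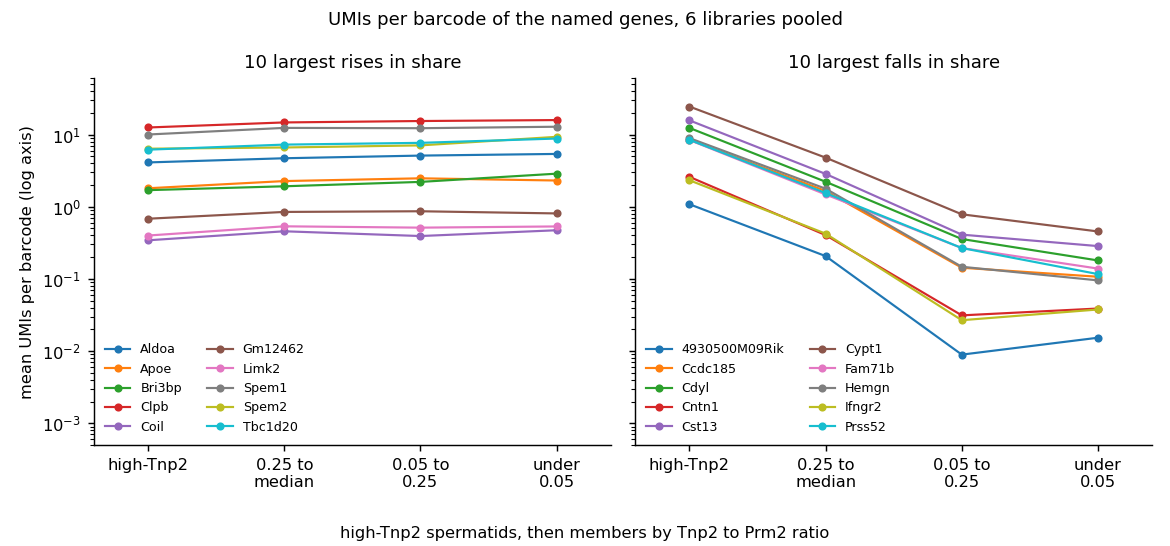
Mean UMIs per barcode (log axis) of the 10 genes with the largest rise and the 10 with the largest fall in share, pooled over the 6 libraries, in high-Tnp2 spermatids and the 3 bands of members. The rising genes run level or upward, as Bri3bp from 1.70 to 2.87 and Spem1 from 10.0 to 12.8 UMIs, and the falling genes drop between the upper bands, as Cdyl from 12.4 to 2.22 and 0.357 UMIs.

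Gene lists are read against the 33.2% of all genes that rose and the 33.5% that fell. In chromatin condensation, of 13 genes tested, 9 rose and 2 fell, with a median log2 change of 0.61. Hils1 (spermatid-specific linker histone) moved most downward, from 351 to 819.6 CPM (median 492) in members and from 2860 to 3687 CPM (median 3221) in high-Tnp2 spermatids (log2 change of -2.39 ± 0.12 (SE), adjusted p = 7.14e-15). Its UMIs per barcode were 5.03 against 56.5. H1fnt, another linker histone of spermatids, had a log2 change of -0.04 ± 0.09 (adjusted p = 0.732), with 41.3, 36.3, 22.5 and 5.67 UMIs per barcode from high-Tnp2 spermatids through the bands. Prm3, the acidic protein encoded between Prm2 and Tnp2, rose by 0.61 ± 0.09, with library ranges that overlapped. It had 68.0, 69.4, 61.1 and 24.5 UMIs per barcode. Hist1h2ba, the testis histone 2B, had the largest rise of the list (2.23 ± 0.42), but at 4.86 against 1.69 CPM, below the 21.2 CPM of the other barcodes.

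The fibrous sheath of the tail carries enzymes of glycolysis, and its list held 23 genes. Of these, 15 rose and 6 fell, with a median log2 change of 0.63. Gapdhs (chr7:30729775-30743681) ranged from 5626 to 8130 CPM (median 6841) in members and from 2878 to 3478 CPM (median 3262) in high-Tnp2 spermatids (log2 change of 1.29 ± 0.10 (SE), adjusted p = 5.08e-12). Aldoa, the glycolytic aldolase whose retrogene copies Aldoart1 and Aldoart2 could share reads with it, rose by 1.52 ± 0.11. Spa17 rose by 0.50 ± 0.09, but fell where 20% of UMIs had to come from the 4 genes (log2 change of -0.14, adjusted p = 0.018). Ldhc, the testis lactate dehydrogenase, fell to 23.6 from 111 UMIs per barcode (log2 change of -1.09), while Pgk2, the testis phosphoglycerate kinase, kept 18.4 and 19.2 and rose in share by 1.10.

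The mRNAs of the scaffold proteins of the fibrous sheath went in opposite directions in share. Akap4 (chrX:7067519-7078609, plus strand, chromosome X) ranged from 2303 to 2902 CPM (median 2554) in members and from 1334 to 1641 CPM (median 1392) in high-Tnp2 spermatids (log2 change of 1.07 ± 0.09 (SE), adjusted p = 7.49e-11). Akap3 (chr6:126853098-126874308, plus strand) ranged from 35.3 to 133 CPM (median 61.7) and from 558 to 702 CPM (median 608) (log2 change of -2.82 ± 0.16 (SE), adjusted p = 2.98e-14). The libraries of the 2 groups of cells did not overlap for either gene. Akap4 had 24.5, 27.7, 24.7 and 18.0 UMIs per barcode from high-Tnp2 spermatids to the lowest band, and Akap3 had 10.6, 2.40, 0.402 and 0.257. The bases before their starts (chr6:126852848-126853097 and chrX:7067265-7067514, the first of 2 windows listed for Akap4) are shown because they share a run of 20 letters, in capitals, that was found in the windows of 2 of 27025 genes, Akap3 and Akap4. It holds TGANGTCA and begins at position -34 in Akap3 and -47 in Akap4.
Akap3: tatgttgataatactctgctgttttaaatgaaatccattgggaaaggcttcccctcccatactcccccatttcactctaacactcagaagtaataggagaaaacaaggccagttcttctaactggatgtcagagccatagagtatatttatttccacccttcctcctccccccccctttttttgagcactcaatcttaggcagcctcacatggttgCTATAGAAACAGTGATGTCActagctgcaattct
Akap4: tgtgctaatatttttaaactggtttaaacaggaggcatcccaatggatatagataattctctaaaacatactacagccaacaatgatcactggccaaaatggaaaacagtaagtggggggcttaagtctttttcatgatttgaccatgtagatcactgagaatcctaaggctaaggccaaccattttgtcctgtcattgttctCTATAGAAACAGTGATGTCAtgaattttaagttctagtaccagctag

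Outer dense fibres run along the tail. Of 18 genes tested, 10 rose and 5 fell, with a median log2 change of 0.63. Odf1 (chr15:38219203-38226735) ranged from 775 to 1088 CPM (median 940.0) and from 413 to 531 CPM (median 467) (log2 change of 1.22 ± 0.11 (SE), adjusted p = 8.64e-11), and Odf2 rose by 1.08 ± 0.09. Oaz3, the antizyme of late spermatids, had the largest rise (1.37 ± 0.10) with 35.1 against 30.8 UMIs per barcode, and Tcp11, a tail protein, rose by 1.25 ± 0.10. Odf3 fell from 362 to 43.0 CPM on average (log2 change of -2.77 ± 0.16 (SE), adjusted p = 4.34e-14).

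The sheath of mitochondria around the midpiece and testis forms of metabolic enzymes gave 9 rises and 7 falls among 17 genes (median 0.28). Smcp, the cysteine-rich protein of the mitochondrial capsule, ranged from 14167 to 22954 CPM (median 18407) in members and from 6697 to 10460 CPM (median 8020) in high-Tnp2 spermatids (log2 change of 1.35 ± 0.10 (SE), adjusted p = 1.92e-12). It had more UMIs per barcode in the members of 6 of 6 libraries, 165 against 145 on average. Gpx4, the selenoenzyme that becomes a structural protein of the sheath, rose by 0.78 ± 0.09, although its UMIs per barcode were lower (51.2 against 67.4). Acsbg2, an acyl-CoA synthetase, had the largest rise (1.45 ± 0.11). Spata19, a mitochondrial protein of spermatids, fell most (log2 change of -2.03 ± 0.11 (SE), adjusted p = 1.79e-14).

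Among testis-specific serine kinases and their partners, 3 of 7 rose and 3 fell. Tssk6 (chr8:69902184-69903518) ranged from 2321 to 4395 CPM (median 3434) in members and from 1138 to 1697 CPM (median 1539) in high-Tnp2 spermatids (log2 change of 1.39 ± 0.11 (SE), adjusted p = 5.3e-12). Tssk1, a kinase of the same family, ranged from 65.5 to 180.2 CPM (median 99.0) and from 728 to 936 CPM (median 785) (log2 change of -2.73 ± 0.13 (SE), adjusted p = 7.14e-15). The chaperone partner Tsacc was counted as a rise at 0.22 ± 0.09, but its mean was 1776 against 1782 CPM and its log2 change was below 0 on library size alone. The median of this list, 0.13, was -0.10 on that scaling.

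The manchette is the microtubule skirt that shapes the head. Of its 19 tested genes 9 rose and 7 fell, and the median of 0.16 became -0.07 on library size alone. Meig1 (chr2:3409043-3422648), a manchette protein, ranged from 2048 to 3610 CPM (median 2746) in members and from 6685 to 9412 CPM (median 7961) in high-Tnp2 spermatids (log2 change of -1.31 ± 0.09 (SE), adjusted p = 1.5e-12), with 25.9 against 140.0 UMIs per barcode. Tubb4b, a beta-tubulin, had a log2 change of 0.16 ± 0.09 (adjusted p = 0.124).

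Genes of the acrosome and of sperm-egg fusion stood on the falling side. Of 31 tested genes 23 fell and 6 rose, with a median log2 change of -0.87. In the members of 6 of 6 libraries, 31 of 31 had fewer UMIs per barcode, as had 6528 of all 9612 genes tested. Spaca7 fell most (log2 change of -2.26 ± 0.13 (SE), adjusted p = 2.85e-14). Izumo1, the sperm protein that binds the egg, fell by 1.71, and Acrv1, an acrosomal matrix protein, by 1.53. Spaca9 fell by 0.78, from 2360 to 1174 CPM. Crisp2, which also belongs to the tail, was the largest rise (log2 change of 1.02 ± 0.09 (SE), adjusted p = 1.8e-10). Without both replicate 1 libraries, 22 fell and 3 rose, against 2143 and 1713 of all 8316 genes tested. Where 20% of UMIs had to come from the 4 genes, 15 of 28 fell and 2 rose (median -0.26). Of all 6092 genes tested there, 1640 fell and 1129 rose. With the ratio split at each library's own median 8 of 31 fell and 5 rose (median -0.40), against 1381 and 1363 of all 9115 genes tested.

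Genes listed for round spermatids, an earlier stage, also fell more often than rose, 10 against 3 of 14 (median -0.67). The counts over all genes given for the acrosome list apply to the next values. The pattern was lost where 20% of UMIs had to come from the 4 genes (3 fell and 2 rose, median -0.02). It was also lost with the ratio split at each library's own median (2 fell and 1 rose, median -0.01). Of the list, Acrv1, Spaca1, Lyzl1 and Acr are in the acrosome list too, and Catsper3 in that of ion channels. Fam209 fell most (log2 change of -1.68 ± 0.15 (SE), adjusted p = 1.7e-10), but had a log2 change of 0.041 (adjusted p = 0.87) where 20% of UMIs had to come from the 4 genes. Gm5617 rose by 1.33 ± 0.10 with 93.8 against 84.6 UMIs per barcode. Spert had a log2 change of 0.29 ± 0.09 (adjusted p = 0.00784) and -0.02 without the filter on low counts.

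Regulators of transcription in spermatids were divided, with 5 rises and 5 falls among 14 genes. Fhl5, the coactivator of CREM, fell from 914 to 157 CPM (log2 change of -2.39 ± 0.14 (SE), adjusted p = 5.67e-14). Crem itself had a log2 change of 0.19 (adjusted p = 0.134) at 1.17 against 2.33 UMIs per barcode. Tcfl5 had 0.38 ± 0.10 and Taf7l2, whose sequence is close to other family members, 0.97 ± 0.15. The median of this list was 0.12, and -0.10 on library size alone.

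Sperm ion channels and pumps gave 5 rises and 7 falls among 16 tested genes (median -0.04). Car2 (chr3:14886273-14900770, plus strand) ranged from 1426 to 1889 CPM (median 1784) in members and from 607 to 779 CPM (median 726) in high-Tnp2 spermatids (log2 change of 1.51 ± 0.11 (SE), adjusted p = 1.2e-12), with 12.7, 14.8, 15.1 and 16.3 UMIs per barcode from high-Tnp2 spermatids to the lowest band. Catsper4, a subunit of the sperm calcium channel, fell most (log2 change of -1.78 ± 0.15 (SE), adjusted p = 4.02e-11). Catsperz, an accessory subunit, fell by 0.90. Without both replicate 1 libraries 1 gene rose and 5 fell.

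In the list of mRNA storage and translation, 12 of 23 genes rose and 8 fell. Ybx3, a DNA and RNA binding protein of the Y-box family that represses stored mRNAs, ranged from 233 to 487 CPM (median 301) in members and from 1399 to 1736 CPM (median 1544) in high-Tnp2 spermatids (log2 change of -2.01 ± 0.12 (SE), adjusted p = 2.88e-14). Eif1, an initiation factor, rose by 0.76 ± 0.09 and Paip2, an inhibitor of poly(A)-binding protein, by 0.60 ± 0.09. Tdrd5, of germ granules, had the largest rise (1.43 ± 0.29) at 10.2 against 4.55 CPM, below the 46.3 CPM of the other barcodes.

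Ubiquitin and proteasome genes were split, 13 rising and 11 falling of 25. Spata31d1b, from a family of similar copies, fell most (-2.57 ± 0.16). Ubb rose by 0.33 ± 0.09 and the deubiquitinase Otub2 by 0.38 ± 0.09. Of 19 chaperone genes 10 rose and 5 fell. Dnajb8 rose from a median of 1596 to 3589 CPM (log2 change of 1.39 ± 0.10 (SE), adjusted p = 1.78e-12), Dnajb7 fell from 651 to 95.1 CPM (log2 change of -2.56 ± 0.13 (SE), adjusted p = 7.93e-15), and Hspd1 rose by 1.59 ± 0.43 at 3.49 CPM.

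**Figure D4:**
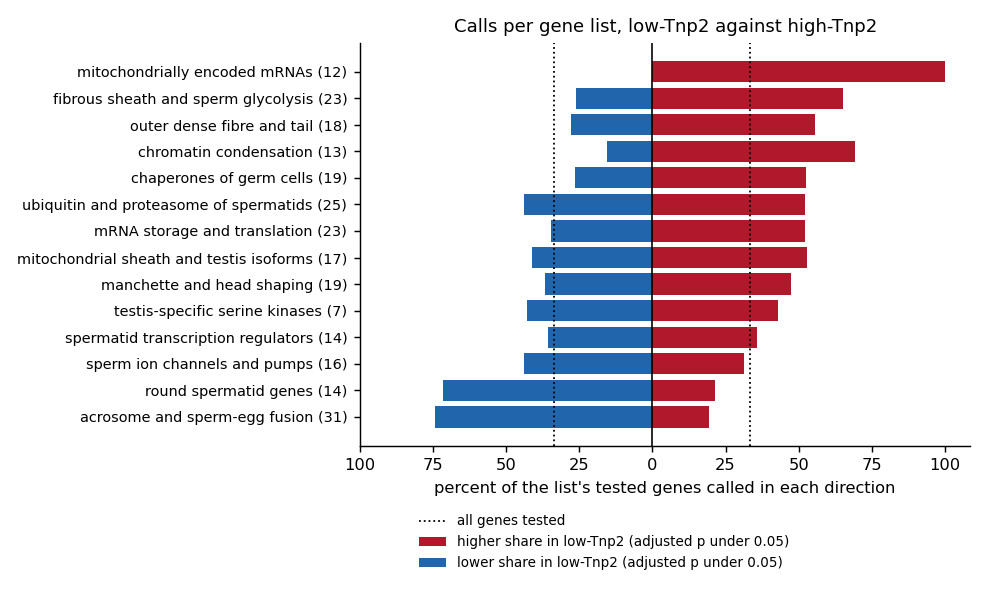
Percent of each list's tested genes (number in brackets) that rose, to the right, or fell, to the left, in low-Tnp2 against high-Tnp2 spermatids at an edgeR adjusted p under 0.05. The dotted lines are the 33.2% and 33.5% of all 9612 genes tested, and the acrosome and round spermatid lists have the longest bars to the left (74.2% and 71.4%). The bar of mitochondrial mRNAs reaches 100% but depends on the libraries and the test used.

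Not every gene that rose in share did so along the bands. Of the 3191 genes that rose, 563 had a higher share in the lowest band than in the band from 0.25 to the median in 6 of 6 libraries and 173 a lower one. Of the 3222 that fell, 822 were lower there and 3 higher. These counts carry no test, and no such count over all genes tested is given beside them. The genes were called on the same members, and HFD replicate 2 had 9 barcodes in each of these bands. Dnajb3, a chaperone, had 61.0, 62.5, 56.5 and 15.5 UMIs per barcode from high-Tnp2 spermatids to the lowest band. Otub2 had 30.3, 26.7, 23.0 and 9.91, and Paip2 23.0, 23.2, 19.7 and 8.41. These genes, like Prm3, kept much of their level until the last band and were low in it. They were singled out among the named genes after their values were seen.

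Mitochondrially encoded mRNAs were higher in members in part of the libraries. So were the summed markers of spermatogonia and spermatocytes and those of Sertoli cells, though not always in the same libraries. Of 12 mitochondrial mRNAs tested 12 rose (median 1.39), but DESeq2 called 1 of 12, 6 of 12 rose without both replicate 1 libraries, and mt-Co2 and mt-Co3 were higher in members in 4 of 6 libraries. The mitochondrial share of all UMIs was 0.417% ± 0.437 (SD over 6 libraries) in members and differed from that in high-Tnp2 spermatids by 0.206 percentage points (exact sign-flip permutation test, two-sided, p = 0.156, adjusted 0.156). Most barcodes had nearly none, with medians of 0.0167% in members and 0.0135% in high-Tnp2 spermatids, and 20 members with over 5% held 36.4% of the members' mitochondrial UMIs.

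Summed markers of spermatogonia and spermatocytes ranged from 171 to 511 CPM in members and from 108 to 365 CPM in high-Tnp2 spermatids, against 1421 CPM in the other barcodes. Of these genes 10 of 11 tested rose, or 5 of 10 without both replicate 1 libraries. The 12 Sertoli cell markers summed to 21.2 to 265 CPM in members, the highest in HFD replicate 1, and to 36.4 to 139 CPM in high-Tnp2 spermatids, the highest in LFD replicate 1, and 7 of 9 tested genes rose, or 0 of 7 without HFD replicate 1. Markers of Leydig, peritubular and stromal cells summed to 7.26 to 46.2 CPM and 3.38 to 8.91 CPM, with Insl3, Hsd3b1 and Hsd3b6 at 0 in both groups, and 1 of 1 tested rose. Macrophage markers summed to 76.3 to 125 CPM and 69.1 to 84.6 CPM, with Lyz2 at 0 in both, and 1 of 2 rose and 1 fell. Red blood cell markers stayed at or below 7.26 CPM and none of the 5 was tested. The part of these cells in the results was not tested.

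The diets were compared in low-Tnp2 spermatids with the library as the replicate. Of 5904 genes tested, 0 were called between HFD and LFD (0% of genes tested, edgeR), 48 had an unadjusted p under 0.05, and DESeq2 called 0, with 12 under 0.05. The smallest adjusted p was 1.00. The median standard error of a log2 change was 0.31. In simulated counts at this size edgeR called 78% of the 200 genes that were given a log2 change of 1. These 200 were drawn from genes of at least 50 CPM, so the value does not cover genes of lower level.

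The differences of the markers between the diets were no larger than their standard errors. Tssk6 stood at 3113, 1803 and 2585 CPM of all UMIs in the HFD libraries and 2957, 2105 and 3518 CPM in the LFD libraries (replicates 1 to 3). Gapdhs stood at 5822, 4370 and 5364 CPM and 5951, 4664 and 6507 CPM. Akap4 was at 1848, 2189 and 2422 CPM and 1991, 1856 and 2056 CPM. The ranges of the diets overlapped for each of these genes. Odf1 was at 815, 671 and 647 CPM and 817, 672 and 870.4 CPM. Car2 read 1440, 1238 and 1479 CPM under HFD and 1424, 1123 and 1512 CPM under LFD, a log2 difference of -0.0041 ± 0.21 (SE). The differences of the other 4 lay between -0.24 ± 0.24 for Tssk6 and 0.10 ± 0.20 for Akap4. Replicate 2 of either diet was the lowest of its group for Tssk6, Gapdhs and Car2.

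**Figure D5:**
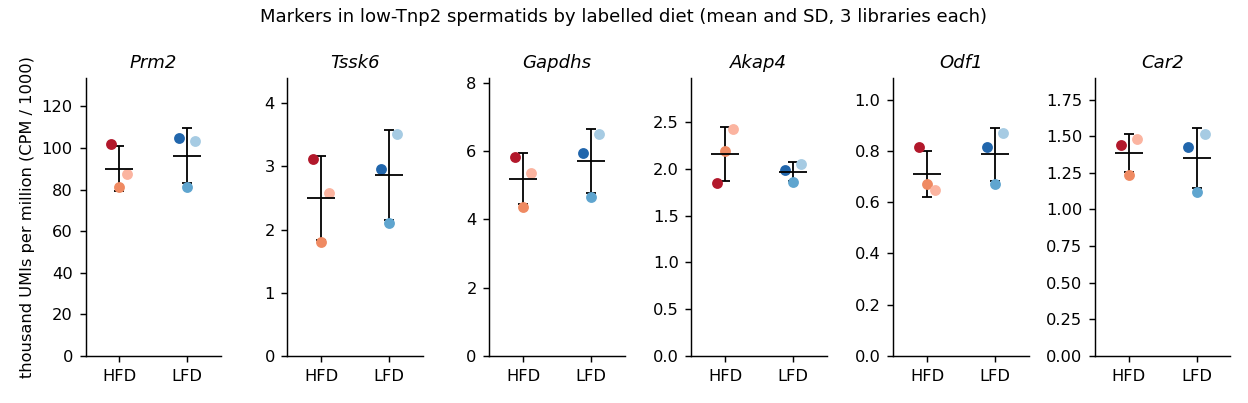
Level of the 6 markers in low-Tnp2 spermatids, as CPM of all UMIs divided by 1000, for the 3 HFD and the 3 LFD libraries (points from left to right are replicates 1 to 3, bars the mean and SD). The points of both diets overlap for every marker, as for Car2, and Prm2 is shown as a gene of the rule, without a test.

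With no call, the 3 genes of smallest p are named. Gm47283 (chrY:90784738-90816464), a predicted gene, had 2.96, 0 and 6.16 CPM in HFD and 10.1, 14.2 and 26.7 CPM in LFD libraries. Its log2 difference was -2.12 ± 0.49 (SE, adjusted p = 1.00 by edgeR). Cfap65, of the flagellum, had 6.04, 5.64 and 6.16 CPM against 6.79, 21.9 and 23.5 CPM. Gstt2, a glutathione transferase, had 28.5, 19.7 and 13.9 CPM against 9.85, 11.3 and 11.0 CPM. The libraries of the diets did not overlap for these 3 genes, as for 257 of all genes tested (4.35%). In the 14 germ cell lists, 0 genes were called, and among the 11 mitochondrial mRNAs tested the median log2 difference was -1.09, with 2 at an unadjusted p under 0.05 and 0 without overlap. LFD replicate 3 had the highest mitochondrial share, 1.26%, and without it the sign of the difference in share turned.

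Shares of cells gave no difference beyond the spread of the libraries. Low-Tnp2 spermatids made up 57.7%, 21.3% and 44.4% of the protamine-rich barcodes in HFD replicates 1 to 3 and 50.1%, 43.0% and 36.2% in LFD replicates (means 41.1% ± 18.4 and 43.1% ± 6.95, SD; exact permutation test over libraries, two-sided, p = 0.90). Protamine-rich barcodes were 21.1%, 1.64% and 4.56% of those of at least 2000 UMIs under HFD and 17.8%, 2.94% and 5.74% under LFD (exact permutation test, p = 1). Replicate 1 of each diet was far above the others, so the values are also given apart: the difference in the low-Tnp2 share was 7.65 percentage points in replicate 1 and -6.77 in replicates 2 and 3, and that in the protamine-rich share 3.30 and -1.24. The mitochondrial share of members was 0.255% ± 0.220 under HFD and 0.579% ± 0.592 under LFD (SD; exact permutation test, p = 0.70), and -0.595 percentage points apart in replicates 2 and 3 against 0.219 in replicate 1. Genes per member barcode at equal depth were 768 ± 36.1 and 761 ± 36.9 (SD; exact permutation test, p = 1). Adjusted over these 4 exact permutation tests, every p was 1, and such a test of 3 libraries against 3 cannot go below p = 0.1.

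Whether the diets differed by another amount in low-Tnp2 than in high-Tnp2 spermatids was tested as an interaction. Of 9612 genes, 0 were called by edgeR and 115 had an unadjusted p under 0.05. Members with a ratio under 0.25 gave 43 calls (0.444% of 9675 genes) and those with 20% of UMIs from the 4 genes gave 7 (0.115% of 6092 genes), described among the further observations.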

How the data were processed

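Single-cell libraries of whole testis were made with 10x Genomics droplets from 3 mice per diet. The submitters' processing notes name Cell Ranger 6.0.1 and mm10, and the study's methods name the 10x Genomics reference package for mm10, which sets the gene annotation. The strand setting and any removal of doublets before deposit are not given in the sources used here. The authors deposited raw UMI counts per gene and barcode (32285 genes), with no normalization, for each library. Columns of other samples not used here numbered 0. Library totals of 39196921 to 95845514 UMIs, and 354466 to 8116633 UMIs summed over the members of a library, set the precision.

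Counts were summed per library and group of cells, and p-values measure the spread among these libraries, 1 per mouse. For low-Tnp2 against high-Tnp2 spermatids the 4 rule genes were removed before library sizes were taken. Genes were filtered with filterByExpr, scaled by TMM and tested with edgeR 4.0.16 (quasi-likelihood, Benjamini-Hochberg adjustment over all genes tested, R 4.3.3, limma 3.58.1), with the library as a block for this comparison and diet as the term within members. In the diet comparison the 4 rule genes stayed in the fit and the library sizes. DESeq2 1.42.0 was an alternative. Single values were tested by exact permutation (scipy 1.17.1, numpy 2.4.6, pandas 2.3.3, Python 3.11.15), and figures drawn with matplotlib 3.10.9. For genes per barcode, each barcode was thinned to 2000 UMIs with all genes kept. The macrophage-gated barcodes had at least 1000 UMIs and 0.5% of UMIs from macrophage markers. On simulated counts with 200 genes changed by a log2 of 1, the test recovered 100% with 5 false calls for low-Tnp2 against high-Tnp2 (9612 genes) and 78% with 7 false calls for the diets (5904 genes). The changed genes were drawn only from those of at least 50 CPM. No doublet caller was run.

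The members, gene lists and tests were chosen with earlier results of these data known. Named genes are the 10 largest rises and falls among called genes of at least 50 CPM that moved one way in 6 of 6 libraries, the markers, and in each germ cell list the largest rise and fall and the 2 genes of highest level in members. For the diets they are the 3 smallest p-values where no gene was called. Ldhc, Pgk2, Izumo1, Acrv1 and Crem were added after their values were seen, and 1 gene that the rule names is not reported here. Positions are from GENCODE (GRCm38) and promoter windows from RefSeq. Of the list genes, 2 were not found under their symbols. Alternatives changed the gates, the ratio bound, scaling, filter, test and libraries.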

Additional observations from a re-analysis of the deposited data

Results flagged for a closer look

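Of 68 values tested for a library far from the other 5, 2 stood apart, and chance gives about 1 in 20. Both were in LFD replicate 3, which had 68 members. The difference in genes per barcode at equal depth between low-Tnp2 and high-Tnp2 spermatids was -231.5 genes there, against -150 to -171 in the other libraries. For Fam209, listed with the genes of round spermatids, the log2 ratio of CPM was -3.57 there, against -1.38 to -1.96 in the others. The direction was the same in 6 of 6 libraries for both. LFD replicate 3 also had the highest mitochondrial share of members (1.26%), whose part in these values was not tested.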

How the results depend on the processing

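Low-Tnp2 against high-Tnp2 spermatids gave 6413 calls, and 5346 to 6547 with 1 library left out. The count was 2769 where 20% of UMIs had to come from the 4 genes, 2744 with the ratio split at each library's own median, and 3856 without both replicate 1 libraries (an alternative chosen after seeing the data). The other alternatives stayed within 1.5 times the reported count. Without TMM (chosen after seeing the data), 37.3% of calls were rises, and without the low-count filter 30.9%, against 49.8%. For 69 named genes under 19 alternatives, 1243 of 1300 values kept direction and side of the threshold, 41 lost the call, 5 gained one and 11 turned sign. These were Spa17 (-0.14, a called fall) and Fam209 (0.041) at 20% of UMIs, H1fnt at 20% of UMIs (0.090), without both replicate 1 libraries (0.051) and within its range of -0.13 to 0.037 with 1 library left out (positive without HFD replicate 1), Spert without the filter (-0.018), Tsacc at ratios under 0.25 (-0.020), without the filter (-0.082) and without TMM (-0.00346), and Tubb4b without the filter (-0.15) and without TMM (-0.069). The causes were not tested.

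Between the diets, the count without the filter was 7 in place of 0 (Acta2 higher under HFD, and mt-Co1, mt-Nd2, mt-Nd3, mt-Nd5, mt-Co2 and Gm47283 lower). The interaction gave 7 calls at 20% of UMIs (7 of 11 mitochondrial mRNAs tested, with a larger HFD to LFD ratio in members), 43 at ratios under 0.25 (chosen after seeing the data), 4 without the filter, and 0 to 2 with 1 library left out, the 2 (Sparc and Clu) without LFD replicate 3. Same-numbered HFD and LFD libraries correlated at -0.14, 0.03 and 0.22, so these deviations did not pair the samples by number, although the replicate 1 libraries of both diets stood apart in their share of protamine-rich barcodes. The replicate block gave 0 calls between the diets, with 53 unadjusted p-values under 0.05. Without the block, low-Tnp2 against high-Tnp2 spermatids gave 5226 calls. Of 131 values of 8 genes named for the diets, 115 kept direction and side, 1 gained a call and 15 turned sign. Split at each library's own median, Tssk6, Gapdhs, Odf1 and Car2 were at 0.082, 0.067, 0.024 and 0.19. With 1 library left out, Akap4 ranged from -0.011 to 0.20 and Car2 from -0.18 to 0.12. Car2 was at 0.15 with 5000 UMIs, 0.049 without the deepest 10% of barcodes, 0.11 with the rule applied after thinning, 0.015 with DESeq2, 0.014 with its size factors, 0.011 with a term that sets the replicate 1 libraries apart and 0.028 with the replicate block.

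The difference between diets in the low-Tnp2 share was 0.309 points without the deepest 10%, 0.0078 at each library's own median, and -10.3 to 7.95 with 1 library left out. The protamine-rich share differed by -0.762 at 5000 UMIs, -0.558 at 20% of UMIs and -5.73 to 4.75. The mitochondrial share of members differed by 0.0228 at ratios under 0.25 and -0.499 to 0.0182, and genes per barcode by -5.83 with the 4 genes removed before thinning and -10.2 to 26.4. Between low-Tnp2 and high-Tnp2 spermatids, the mitochondrial share differed by -0.0383 as a mean over barcodes and 0.106 to 0.277 with 1 library left out, and genes per barcode by -178.3 to -162.0 (exact p = 0.0625, the smallest 5 pairs allow).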

Other observations

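Among members with a ratio under 0.25, a bound chosen after seeing the data, the diets differed by another amount than in high-Tnp2 spermatids for 43 of 9675 genes tested (0.444%, edgeR), 39 of them with a larger HFD to LFD ratio in the members. Of 9 Sertoli cell markers tested 8 were called, and of 12 mitochondrially encoded mRNAs 10. Where 20% of UMIs had to come from the 4 genes, 7 of 6092 genes were called (0.115%), all mitochondrially encoded, with mt-Cytb at 3.18 and mt-Nd1 at 3.00 on the log2 scale. Clu, the secreted chaperone clusterin, had an interaction of 4.89 on the log2 scale (adjusted p = 2.6e-15), Sparc, a matrix protein, 6.32, and mt-Co1, a subunit of cytochrome oxidase, 1.68 (adjusted p = 1.1e-11). HFD replicate 1 held 547 of the 1073 members of this kind and had the highest summed Sertoli cell markers among members, and the part of that library was not tested.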
